A study of Mus musculus with 18 samples.

Results

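The 34 genes described here are transcripts of myeloid cells and B cells, measured in libraries of T cells. They were taken as a named list and looked up by Ensembl ID, and all 34 were found among the 53509 genes listed in the 3 count tables. Grouped by role, 11 encode receptors and lysosomal proteins of macrophages and monocytes, 8 encode neutrophil granule proteins and calprotectin, and 3 encode secreted inflammatory factors. A further 4 are MHC class II genes, 6 are B cell genes, and 2 mark plasmacytoid dendritic cells and early progenitors.

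The study treated double negative T (DNT) cells, T cells that carry neither CD4 nor CD8, with ligands of purinergic receptors. All libraries came from wild type mouse DNT cells that had been converted from CD4+ T cells of spleen and lymph node, and all cells were stimulated with anti-CD3/CD28 antibody. There were 18 libraries in 3 sets of 6, with 3 libraries per group. In the first set, WTATPgs cells received 400 µM ATPgs, a non-hydrolysable analogue of ATP, for 6 h, and WT cells received none. In the second set, ADO cells received 400 µM adenosine for 6 h and DNT cells received none. In the third set, all cells were given 250 nM of an inhibitor of the adenosine receptor A2aR, and RA cells received 400 µM adenosine in addition for 6 h, against inhibitor alone in R cells. The labels do not state if mice or cultures differed between the 3 libraries of a group, so the p-values measure the spread between these libraries, which may be technical. The labels used here give no purity of the converted cells and do not say which other cells were present.

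In spleen and lymph node, macrophages and monocytes are recognised by receptors such as Csf1r and F4/80 (Adgre1), neutrophils by the proteins stored in their granules, and B cells by the parts of the B cell receptor and the factors that set B cell identity. Mature T cells are not known for transcribing neutrophil granule protease or B cell identity genes. These transcripts are therefore used as markers of other cells in a T cell preparation. Granzymes are other granule proteases, which T cells do transcribe. Several of the other genes listed are not fixed markers, since Thbs1, Il1b and Cd14 can also be induced within hours in cells that express them.

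Total counts ran between 20156082 and 24331577 per library. Values are CPM, a gene's count relative to the total count of its library, scaled with the TMM factors of a set's own 6 libraries, so levels set side by side across the 3 sets come from tables normalized separately. Transcripts of T cells were present in every library, with Cd3e between 54.3 and 175 CPM and Lck between 182 and 346 CPM over the 18 libraries. Cd4 lay between 0.328 and 10.9 CPM and Cd8a between 3.29 and 24.7 CPM. WTATPgs replicate 3 stood apart from the other libraries of its group. A chi-square test of the counts gave 25.3 and 25.4 per degree of freedom for its pairs with WTATPgs replicates 1 and 2, against 1.65 for replicates 1 and 2, and between 1.87 and 2.39 for pairs within WT, ADO and DNT. Pairs of RA libraries gave 3.88 to 6.81 and pairs of R libraries 43.8 to 210, so R was the least uniform group. In bulk libraries, fewer cells of a type and less RNA per cell cannot be told apart.

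Across the 18 libraries, 29 of the 34 transcripts averaged 1 CPM or more in some group. The remaining 5, Fcgr1, Ebf1, Blnk, Siglech and Flt3, had at most 1.60 CPM in any library. Siglech, a lectin of plasmacytoid dendritic cells, had 0 counts in all 18 libraries, where a count of 0 allows up to 3 counts or 0.122 to 0.177 CPM per library. Flt3, the receptor of early progenitors and dendritic cells, did not exceed 0.451 CPM in any library. In the first set, 29 transcripts reached 1 CPM in WTATPgs cells and 23 in WT cells. In the adenosine set the same count was 13 in ADO cells and 12 in DNT cells, and in the inhibitor set 10 in RA cells and 13 in R cells. Per kilobase of exon, the highest mean levels among the 34 in WTATPgs cells were those of S100a9 at 94.3 CPM per kb and Ngp at 36.3 CPM per kb, against 28.2 and 11.8 CPM per kb in WT cells. In ADO cells Ctss at 22.8 and Cd68 at 10.7 CPM per kb led, against 16.2 and 6.60 CPM per kb in DNT cells, and S100a9 stood at 0.113 CPM per kb in ADO cells and 0.0569 in DNT cells. These genes encode a calprotectin subunit (S100a9), a granule protein (Ngp), the lysosomal protease cathepsin S (Ctss) and a lysosomal membrane protein (Cd68).

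**Figure D1:**
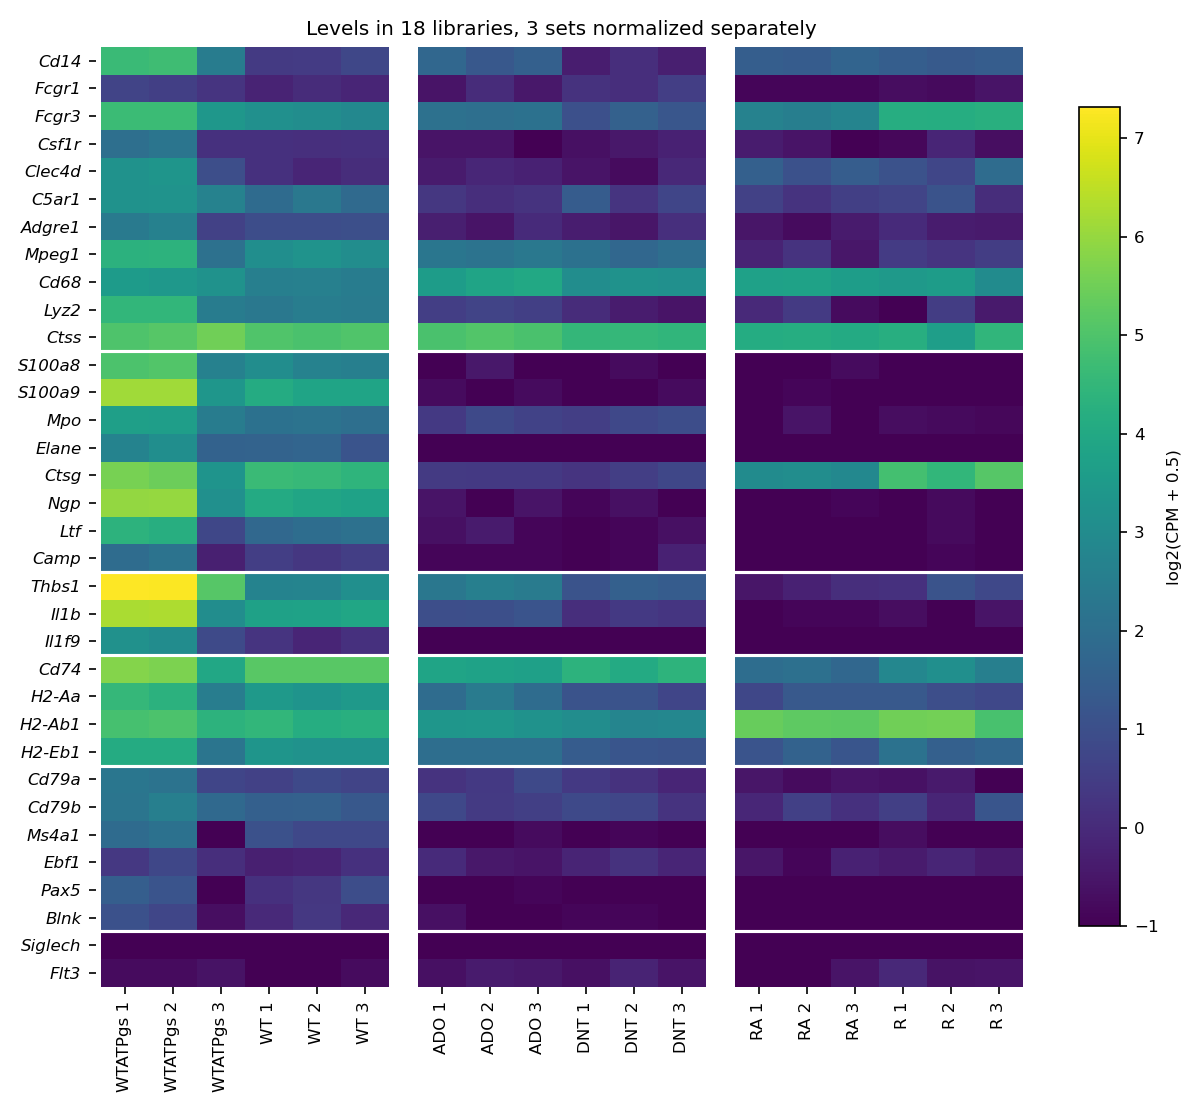
Colour gives log2(CPM + 0.5) of the 34 transcripts (rows, grouped by role) in 18 libraries (columns). The granule and B cell genes were brightest in WTATPgs replicates 1 and 2 and near the bottom of the scale in the adenosine and inhibitor sets, except Ctsg in RA and R libraries, while Ctss, Cd68 and H2-Ab1 were present in every library.

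With ATPgs, 10 of the 34 transcripts rose and none fell, and for 31 of the 34 WTATPgs replicates 1 and 2 were higher than replicate 3. Of the 34, 32 had enough counts to be tested, and edgeR's quasi-likelihood test called 10 of them (31.2%) higher in WTATPgs than in WT cells at an adjusted p under 0.05. Over all 15124 genes tested, 37.1% were called, 17.7% higher and 19.4% lower. An unadjusted p under 0.05 was reached by 16 of the 32. The median log2 fold change of the 32 was 1.30, beside -0.00062 over all genes tested, and all 32 values were positive under TMM, RLE and library size scaling, against 29 with limma-voom. Some of the 32 passed the filter on low counts through WTATPgs libraries, where they were higher, so these counts describe the transcripts tested. The calls depended on single libraries: leaving out WTATPgs replicate 3 raised the number called to 31 of 32, with 53.8% of all genes called, whereas leaving out WT replicate 1, 2 or 3 left 2, 3 or 2, and leaving out WTATPgs replicate 1 or 2 left 5 or 4. Only Cd68 and C5ar1 were called in each of these refits.

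Among the macrophage and monocyte genes, 6 of 11 rose. Cd14, the surface receptor that hands lipopolysaccharide to TLR4 (ENSMUSG00000051439), had 24.4, 26.3 and 5.0 CPM in WTATPgs libraries, against 0.830, 0.874 and 1.19 CPM in WT libraries. Each WTATPgs library was above every WT library, and replicates 1 and 2 were about 5 times replicate 3, as their ratios to the WT mean of 25.3, 27.2 and 5.18 show. The edgeR fit gave a log2 fold change 4.25 ± 0.82 (SE), adjusted p = 0.0152. Clec4d, a C-type lectin of monocytes and neutrophils (ENSMUSG00000030144, chr6:123262111-123275265 on GRCm38), had 9.0, 9.59 and 1.46 CPM in WTATPgs libraries, against 0.599, 0.414 and 0.530 CPM in WT libraries. Again no WTATPgs value overlapped WT, at 17.5, 18.6 and 2.84 times the WT mean, with a log2 fold change 3.68 ± 0.85 (SE), adjusted p = 0.0215 by edgeR. The Fc receptor Fcgr3, which binds immunoglobulin G complexes, had 25, 24.7 and 10.1 CPM in WTATPgs libraries, against 8.25, 7.77 and 6.85 CPM in WT libraries. Replicate 3 was the lowest WTATPgs library but above all WT libraries (log2 fold change 1.39 ± 0.38 (SE), adjusted p = 0.0369, edgeR). C5ar1, the receptor of the complement fragment C5a, had 8.91, 9.20 and 5.77 CPM in WTATPgs libraries, against 3.13, 4.55 and 3.05 CPM in WT libraries, with no overlap between the groups (log2 fold change 1.15 ± 0.23 (SE), adjusted p = 0.00509, edgeR). Cd68, a lysosomal membrane glycoprotein, had 11.2, 10.2 and 8.86 CPM in WTATPgs libraries, against 5.44, 5.47 and 4.99 CPM in WT libraries. Its 3 WTATPgs libraries lay closer together than for the other genes that rose, and its edgeR values were a log2 fold change 0.93 ± 0.12 (SE), adjusted p = 0.000581. Fcgr1, the high-affinity receptor of immunoglobulin G, was called at low level, at most 1.08 CPM in a library (log2 fold change 1.09 ± 0.33 (SE), adjusted p = 0.0292, edgeR).

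The other 5 genes of this group did not pass the test. In 4 of them WTATPgs replicate 3 lay within or below the WT range. Csf1r, the receptor of macrophage colony-stimulating factor, had 3.50, 4.14 and 0.610 CPM in WTATPgs libraries, against 0.599, 0.598 and 0.619 CPM in WT libraries. Lysozyme (Lyz2), a secreted enzyme of macrophages and neutrophils, had 21.6, 21.5 and 5.0 CPM in WTATPgs libraries, against 4.56, 5.11 and 4.82 CPM in WT libraries. In both, replicates 1 and 2 were 4 to 7 times the WT mean and replicate 3 was within the WT range. Adgre1, which encodes F4/80, had 4.80, 5.71 and 1.02 CPM in WTATPgs libraries, against 1.43, 1.43 and 1.5 CPM in WT libraries. The perforin-like protein Mpeg1 had 19.5, 19.6 and 3.66 CPM in WTATPgs libraries, against 7.93, 9.20 and 7.82 CPM in WT libraries. Here replicate 3 was below every WT library. Ctss, the cysteine protease that trims the invariant chain, had 31.4, 33.9 and 45.1 CPM in WTATPgs libraries, against 32.0, 30.2 and 32.3 CPM in WT libraries. It was the 1 tested transcript that was not highest in WTATPgs replicates 1 and 2, and replicate 3 was its highest library. The adjusted p-values of these 5 by edgeR were 0.0515 for Csf1r, 0.0846 for Lyz2, 0.126 for Adgre1, 0.418 for Mpeg1 and 0.221 for Ctss.

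The 8 granule and calprotectin genes were the most abundant of the 34 in WTATPgs replicates 1 and 2 when added together, with 249.6, 250.0 and 42.2 CPM in WTATPgs libraries, against 74.3, 67.8 and 63.3 CPM in WT libraries. Replicates 1 and 2 were more than 3 times WT, and replicate 3 was below it. S100a8, a subunit of calprotectin, had 30.2, 32.9 and 5.69 CPM in WTATPgs libraries, against 7.70, 5.98 and 5.44 CPM in WT libraries. Its partner S100a9 had 69.0, 68.9 and 9.79 CPM in WTATPgs libraries, against 16.3, 13.9 and 14.1 CPM in WT libraries. Ngp, a granule protein of maturing neutrophils, had 61.5, 63.4 and 8.25 CPM in WTATPgs libraries, against 16.0, 14.1 and 13.3 CPM in WT libraries. Replicate 3 was below every WT library for S100a9 and Ngp and within the WT range for S100a8. Ltf (lactoferrin), an iron-binding protein of the secondary granules, had 19.7, 17.9 and 1.22 CPM in WTATPgs libraries, against 2.95, 3.36 and 3.67 CPM in WT libraries. Camp, the cathelicidin, had 3.24, 3.96 and 0.325 CPM in WTATPgs libraries, against 0.922, 0.736 and 0.928 CPM in WT libraries. These 2 secondary granule genes had the lowest replicate 3 levels of the group relative to WT, at 0.367 and 0.377 times the WT mean. Among the proteases of the primary granules, Ctsg (cathepsin G) had 47.8, 43.0 and 9.43 CPM in WTATPgs libraries, against 24.1, 23.1 and 20.7 CPM in WT libraries. Elane (neutrophil elastase) had 6.14, 7.89 and 2.48 CPM in WTATPgs libraries, against 2.54, 2.71 and 1.72 CPM in WT libraries. Replicate 3 was below WT for Ctsg and within the WT range for Elane. Mpo, the myeloperoxidase of the same granules, had 12, 11.9 and 5.04 CPM in WTATPgs libraries, against 3.83, 4.0 and 3.49 CPM in WT libraries, and was the 1 gene of the 8 that passed the test (log2 fold change 1.35 ± 0.34 (SE), adjusted p = 0.0212, edgeR). The other 7 had adjusted p-values between 0.0656 and 0.555 by edgeR.

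Of the 3 secreted factors, Thbs1 and Il1f9 rose. Thbs1, thrombospondin 1, is a matrix glycoprotein that activates latent transforming growth factor beta (ENSMUSG00000040152, chr2:118111876-118127133). It had 158, 153 and 34.6 CPM in WTATPgs libraries, against 6.08, 6.21 and 8.04 CPM in WT libraries. All WTATPgs libraries were above WT, at 23.4, 22.6 and 5.10 times the WT mean, which is close to the ratios of Cd14 (log2 fold change 4.08 ± 0.77 (SE), adjusted p = 0.0180, edgeR). Il1f9, which encodes the interleukin-36 gamma cytokine (ENSMUSG00000044103, chr2:24186476-24193568), had 8.56, 7.50 and 1.34 CPM in WTATPgs libraries, against 0.691, 0.414 and 0.619 CPM in WT libraries, without overlap between the groups (log2 fold change 3.32 ± 0.80 (SE), adjusted p = 0.0241, edgeR). Il1b, the proinflammatory cytokine interleukin 1 beta, had 76.7, 77.0 and 7.68 CPM in WTATPgs libraries, against 13.0, 13.2 and 14.6 CPM in WT libraries. Its replicates 1 and 2 were 5.63 and 5.65 times the WT mean and replicate 3 was 0.564 times it, below every WT library, and it did not pass the test (log2 fold change 1.98 ± 0.93 (SE), adjusted p = 0.179, edgeR). Thbs1 and Il1b each overlap an annotated gene on the opposite strand, as do Mpo, Csf1r and H2-Eb1 among the genes described here, and the strandedness of the libraries is not given in the sources used here, so reads of the overlapping pairs cannot be told apart and the values of these 5 genes, the calls of Thbs1 and Mpo included, are uncertain to that extent.

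None of the 4 MHC class II genes passed the test. Cd74, the invariant chain that escorts class II molecules, had 53.9, 50.9 and 15.1 CPM in WTATPgs libraries, against 34.9, 35.1 and 34.9 CPM in WT libraries. The alpha chain H2-Aa had 22.5, 19.3 and 5.08 CPM in WTATPgs libraries, against 10.6, 9.29 and 10.6 CPM in WT libraries. The beta chain H2-Eb1 had 16.4, 16.4 and 4.23 CPM in WTATPgs libraries, against 9.68, 8.74 and 9.02 CPM in WT libraries. In all 3, replicates 1 and 2 were 1.45 to 2.22 times the WT mean and replicate 3 was below every WT library. H2-Ab1, the beta chain that pairs with H2-Aa, had 28.7, 30.2 and 19.9 CPM in WTATPgs libraries, against 21.5, 17.1 and 18.6 CPM in WT libraries. Its replicate 3 was within the WT range. The adjusted p-values of the 4 by edgeR lay between 0.0704 for H2-Ab1 and 0.812 for Cd74.

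Of the 6 B cell genes, Cd79b rose. It encodes a signalling chain of the B cell receptor and had 4.15, 5.36 and 3.01 CPM in WTATPgs libraries, against 2.35, 2.44 and 1.90 CPM in WT libraries, with no overlap between the groups (log2 fold change 0.90 ± 0.24 (SE), adjusted p = 0.0169, edgeR). Its partner chain Cd79a had 4.33, 3.96 and 1.14 CPM in WTATPgs libraries, against 1.01, 1.29 and 1.10 CPM in WT libraries, with replicate 3 inside the WT range and an adjusted p = 0.0520 by edgeR. Ms4a1, the CD20 antigen, had 3.16, 3.75 and 0 CPM in WTATPgs libraries, against 1.57, 1.24 and 1.24 CPM in WT libraries. Pax5, the factor that maintains B cell identity, had 2.21, 1.74 and 0 CPM in WTATPgs libraries, against 0.599, 0.736 and 1.41 CPM in WT libraries. Both had 0 counts in WTATPgs replicate 3, which allows up to 0.122 CPM there. Ebf1, a factor that specifies B cells, and Blnk, an adaptor of B cell receptor signalling, had at most 1.22 and 1.60 CPM. The Cd79b level in replicate 3 thus stood beside 0 counts of Ms4a1 and Pax5 in the same library. Of these, Ms4a1, Pax5 and Ebf1 overlap annotated RNAs on the opposite strand.

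**Figure D2:**
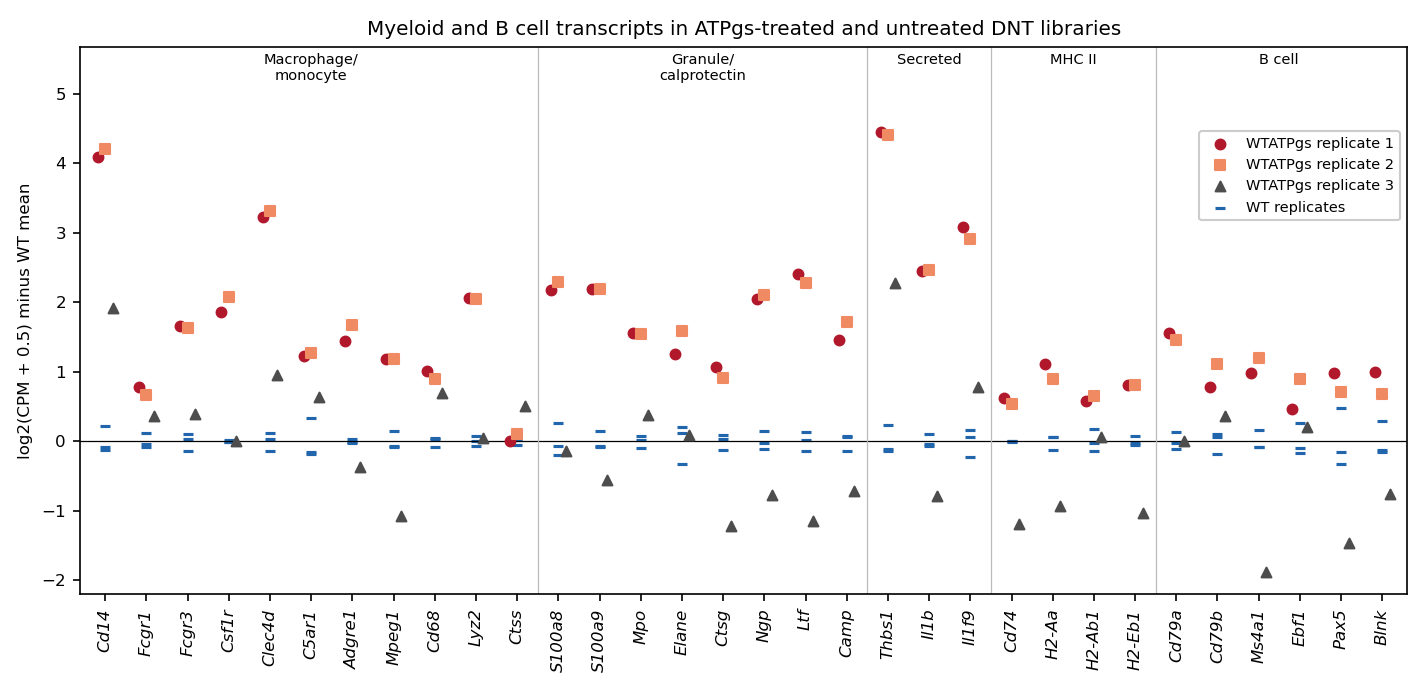
Each tested transcript is placed by log2(CPM + 0.5) minus the mean of the 3 WT libraries (vertical axis), with a red circle for WTATPgs replicate 1, an orange square for replicate 2, a dark triangle for replicate 3 and blue dashes for WT. Replicates 1 and 2 lie together and above WT for every gene but Ctss, and the triangle of replicate 3 is above every WT dash for Ctss and for the 10 genes whose 3 WTATPgs libraries all exceed WT.

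Set out by library, the 32 tested transcripts fell into a few orders. In 31 of them, all but Ctss, WTATPgs replicates 1 and 2 were both above replicate 3 and every WT library, an order that 19.8% of all 15124 genes tested had. All 3 WTATPgs libraries were above every WT library for 10, where 24.4% of all genes had that order. These were the 10 genes called by the test: Cd14, Fcgr1, Fcgr3, Clec4d, C5ar1, Cd68, Mpo, Thbs1, Il1f9 and Cd79b. With replicates 1 and 2 above WT, replicate 3 was below every WT library for 14 transcripts, against 5.29% of all genes. They were Adgre1, Mpeg1, S100a9, Ctsg, Ngp, Ltf, Camp, Il1b, Cd74, H2-Aa, H2-Eb1, Ms4a1, Pax5 and Blnk. For 7 more, Csf1r, Lyz2, S100a8, Elane, H2-Ab1, Cd79a and Ebf1, replicate 3 was within the WT range, against 4.23% of all genes. With library size as the only scaling, all 3 WTATPgs libraries were also above WT for Csf1r, Lyz2 and Ctss, which made 13. Replicates 1 and 2 lay close together throughout, with a ratio of replicate 1 to replicate 2 between 0.638 and 1.36 and a median of 0.997 over the 32.

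To set the transcripts against the granule genes, each was expressed as a percentage of the summed CPM of the 8 granule and calprotectin genes in the same library. The 8 did not all move in step with their own sum. By this ratio Ctsg was below WT in all 3 WTATPgs libraries, with a mean 0.592 times WT. S100a8 and S100a9 were above WT in all 3, by 1.40 and 1.21 times. This ratio was chosen after the data were seen and is a description without a test. Cd14 stood at 9.79, 10.5 and 11.8% in WTATPgs and 1.12, 1.29 and 1.89% in WT libraries. Thbs1 stood at 63.4, 61.2 and 81.9% in WTATPgs and 8.19, 9.15 and 12.7% in WT libraries. Both were several times higher in every WTATPgs library, replicate 3 included. Clec4d stood at 3.6, 3.83 and 3.46% in WTATPgs and 0.806, 0.610 and 0.838% in WT libraries. Il1f9 stood at 3.43, 3.0 and 3.18% in WTATPgs and 0.930, 0.610 and 0.978% in WT libraries. No WTATPgs value of these 4 overlapped WT. For these 4 the WTATPgs mean over the WT mean was 7.49 (Cd14), 6.87 (Thbs1), 4.84 (Clec4d) and 3.81 (Il1f9). Csf1r and Lyz2 were also above WT in all 3 libraries, by means of 1.69 and 1.37 times. Over the summed CPM of Lyz2, Csf1r, Adgre1 and Mpeg1, Cd14, Clec4d, Thbs1 and Il1f9 were above WT in all 3 WTATPgs libraries as well, by 7.82, 5.0, 7.12 and 3.93 times, together with S100a8 by 1.43 times. Of the 28 transcripts outside that sum, 5 were below WT in all 3 WTATPgs libraries, namely Ctsg, Cd74, H2-Aa, H2-Eb1 and Ms4a1.

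Relative to the granule sum, the remaining transcripts outside it were not above WT in all 3 WTATPgs libraries. Adgre1 over the granule sum was 1.03 times and Cd79a 1.20 times WT. Among the MHC class II genes, Cd74 stood at 21.6, 20.4 and 35.8% in WTATPgs and 47.0, 51.8 and 55.2% in WT libraries. H2-Eb1 stood at 6.57, 6.57 and 10.01% in WTATPgs and 13.0, 12.9 and 14.2% in WT libraries, and both were lower in every WTATPgs library. H2-Aa, Mpeg1 and Ms4a1 were also below WT in every WTATPgs library, while H2-Ab1 was lower in replicates 1 and 2 and higher in replicate 3. Il1b stood at 30.7, 30.8 and 18.2% in WTATPgs and 17.5, 19.5 and 23.0% in WT libraries, so that replicate 3 overlapped WT. Fcgr3 stood at 10.02, 9.87 and 24% in WTATPgs and 11.1, 11.5 and 10.8% in WT libraries. Replicates 1 and 2 were slightly below WT, and replicate 3 was 2.15 times the WT mean. Replicate 3 alone was also high for Fcgr1, C5ar1, Cd68, Ctss and Cd79b, whose ratios in replicate 3 were 2.19 to 2.70 times the WT mean. Of 24 transcripts outside the sum, 6 were above WT in all 3 WTATPgs libraries and 5 below. The split depended on the denominator. Over the summed CPM of the 10 mast cell and basophil genes, 17 of 32 transcripts were above WT in all 3 WTATPgs libraries and 0 were below. Cd14, Thbs1, Clec4d and Il1f9 were above it there too, with WTATPgs means between 6.89 times WT for Il1f9 and 13.6 times WT for Cd14. Mpeg1, at 0.664 times WT over the granule sum, was at 1.20 times WT over the mast cell and basophil sum, and Mpo, Fcgr3 and Ngp were at 2.28, 2.30 and 2.0 times WT.

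**Figure D3:**
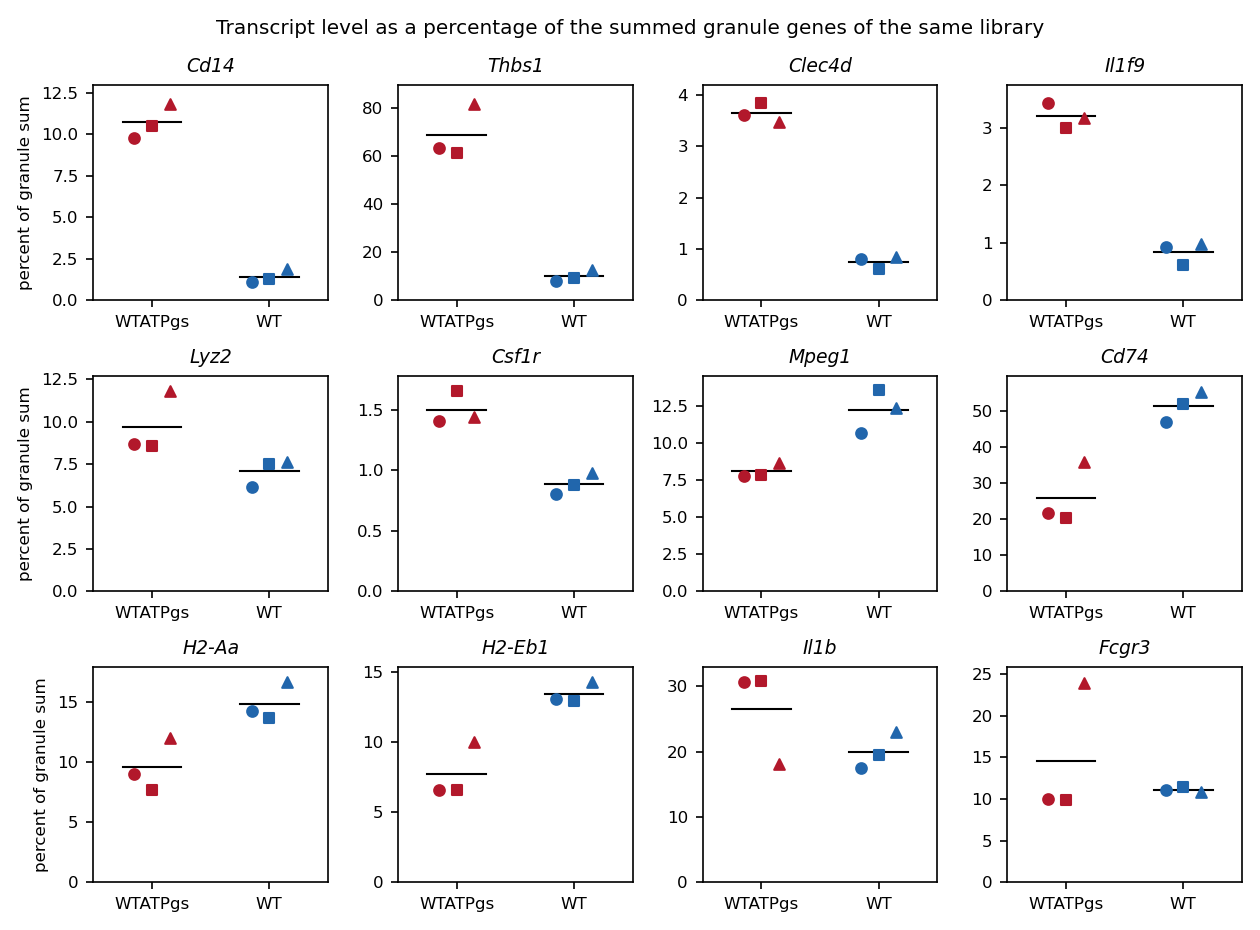
Each panel gives a transcript's CPM as a percentage of the summed CPM of the 8 granule and calprotectin genes in the same library, with a circle for replicate 1, a square for replicate 2, a triangle for replicate 3 and a line at the mean. Cd14, Thbs1, Clec4d and Il1f9 are well above WT in all 3 WTATPgs libraries, Mpeg1, Cd74, H2-Aa and H2-Eb1 are below WT, and Fcgr3 is high in replicate 3 alone.

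Some lists of markers of other cells moved with these transcripts and others did not, and their part in the result was not tested. The counts of calls for these lists stand beside 17.7% higher and 19.4% lower over all genes tested. The 10 mast cell and basophil genes, led by the protease Cpa3, summed to 1249, 1252 and 242 CPM in WTATPgs libraries, against 654, 644 and 641 CPM in WT libraries. None of the 10 passed the test. Replicates 1 and 2 had the highest sums and replicate 3 the lowest of the 6 libraries. The other 20 neutrophil genes summed to 507, 512 and 188 CPM in WTATPgs libraries, against 222, 224 and 223 CPM in WT libraries. Of these, 16 were tested, and 4 were called higher and 1 lower, so that the share called higher was near that over all genes. The most abundant of them were Hdc, the histamine-forming enzyme that mast cells and basophils also carry, Il1r2, a decoy receptor of interleukin 1, and Chil3, a chitinase-like protein. Chil3 had 127, 133 and 9.02 CPM in WTATPgs libraries, against 20.2, 21.9 and 22.2 CPM in WT libraries, the order of Ltf and Ngp. Hdc had this order too. Il1r2 did not, with 66.5, 63.4 and 45.3 CPM in WTATPgs libraries, against 95.1, 95.5 and 95.9 CPM in WT libraries. It was the 1 gene called lower (adjusted p = 0.0104, edgeR). Ltb4r1 and Cebpe were called higher and had their highest level in WTATPgs replicate 3. The other 38 macrophage and monocyte genes summed to 1610.0, 1622 and 1255 CPM in WTATPgs libraries, against 1178, 1171 and 1168 CPM in WT libraries, but their most abundant members, Lilrb4a, Ccr2 and Plac8, are also transcribed in T cells. Of the 27 tested, 8 were called higher and 1 lower. The 9 erythroid genes found by symbol summed to at most 6.1 CPM, and of 4 tested none was called. The 16 dendritic cell genes, led by Irf8, summed to 1374, 1375 and 1319 CPM in WTATPgs libraries, against 1348, 1311 and 1336 CPM in WT libraries. The 8 natural killer cell genes summed to 213, 217 and 254 CPM in WTATPgs libraries, against 200, 204 and 198 CPM in WT libraries. Replicate 3 was highest in the natural killer list. The 30 inducible inflammatory genes summed to 3497, 3452 and 2563 CPM in WTATPgs libraries, against 3182, 3221 and 3209 CPM in WT libraries. The 10 platelet genes, led by Itgb3, summed to 403.9, 407.5 and 321.1 CPM, against 193.5, 195.9 and 200.8 CPM. The 10 stromal genes, led by Pecam1, summed to 193.2, 197.7 and 156.2 CPM, against 130.9, 122.8 and 131.6 CPM. In these lists 5 of 23, 1 of 6 and 2 of 4 tested were called higher, and 3, 0 and 0 lower.

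The T cell list had a different order. The 20 T cell identity genes summed to 4345, 4333 and 4663 CPM in WTATPgs libraries, against 4819, 4790.0 and 4766 CPM in WT libraries, with 0 called higher and 6 lower of 20 tested, beside the 19.4% lower over all genes. WTATPgs replicates 1 and 2 were the lowest libraries and replicate 3 lay between them and WT. The other 22 B cell and plasma cell genes summed to 441, 441 and 321 CPM in WTATPgs libraries, against 475, 477 and 480.0 CPM in WT libraries, with 17 tested, 0 called higher and 2 lower. Their sum was carried by Xbp1, a factor that activated T cells also transcribe, and Ighm, the immunoglobulin M heavy chain, had 47.8, 46.2 and 6.42 CPM in WTATPgs libraries, against 28.7, 28.1 and 25.8 CPM in WT libraries. Ighm thus had the order of Cd74 and H2-Aa. Pou2af1, also among the 3 most abundant of this list, did not. It had 27.8, 30.3 and 14.1 CPM in WTATPgs libraries, against 72.8, 73.3 and 73.9 CPM in WT libraries. With Xbp1 it made up the 2 genes called lower (log2 fold change of Pou2af1 -1.61 ± 0.29 (SE), adjusted p = 0.0116, edgeR). Of the 9 other MHC class II presentation genes tested none was called, and Ciita, the activator of class II transcription, had 4.93, 4.14 and 1.22 CPM in WTATPgs libraries, against 4.98, 3.31 and 3.71 CPM in WT libraries. Of 18 genes tested that are known to be induced through cyclic AMP, 16 were called higher and 1 lower, beside the 17.7% and 19.4% over all genes.

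**Figure D4:**
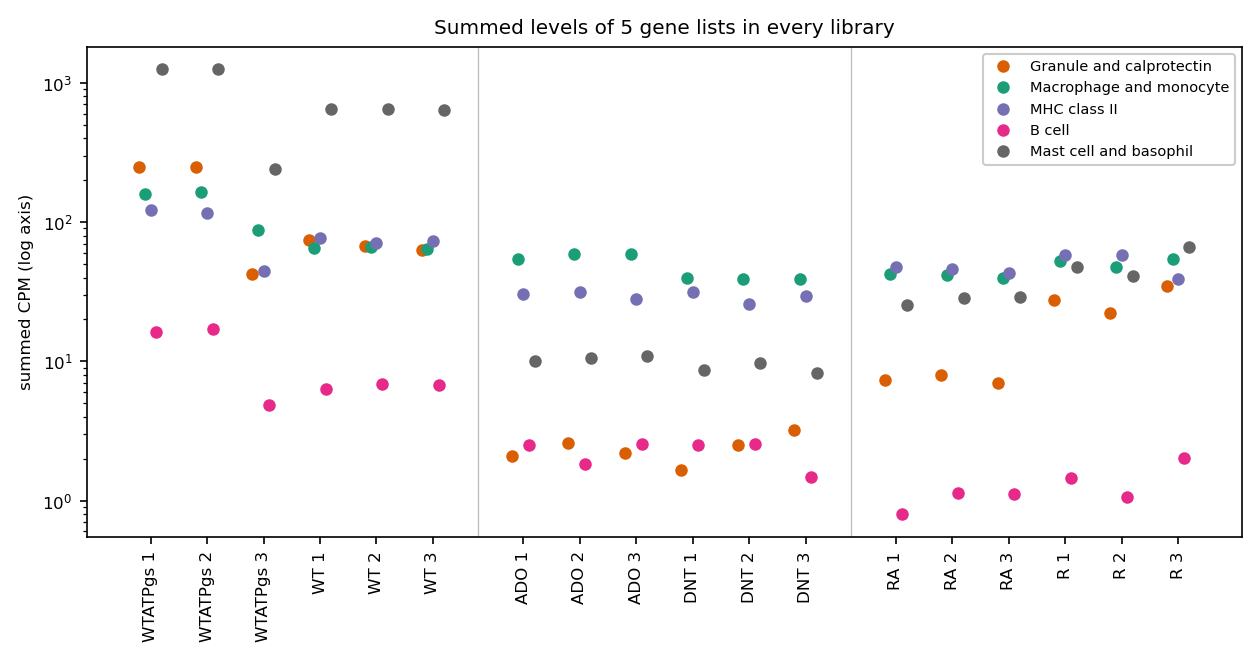
Points give the summed CPM of 5 gene lists (logarithmic vertical axis) in each of the 18 libraries, in 3 sets that were normalized separately. In the first set, all 5 sums are highest in WTATPgs replicates 1 and 2. The sums of WTATPgs replicate 3 are below those of WT for every list but the macrophage and monocyte list. In the adenosine set the granule sum is between 1.7 and 3.2 CPM and the mast cell and basophil sum between 8.2 and 10.9 CPM.

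The genes outside all lists with the largest gap between WTATPgs replicates 1 and 2 and the other 4 libraries, among those with at least 5 CPM in both, were Hcar2, Nts, Ccr8, F10, Chil1, Gstm1, Tnfaip2, Pirb, Fgfr1 and Hgf. They are given as a description with no test. Hcar2, a receptor of niacin and ketone bodies, had 6.96, 6.06 and 1.02 CPM in WTATPgs libraries, against 0.830, 0.552 and 0.619 CPM in WT libraries. Pirb, an inhibitory receptor of myeloid and B cells, had 8.13, 6.36 and 1.71 CPM in WTATPgs libraries, against 1.43, 1.89 and 1.37 CPM in WT libraries. Hgf, hepatocyte growth factor, had 40.2, 35.7 and 3.54 CPM in WTATPgs libraries, against 9.31, 9.43 and 11.1 CPM in WT libraries. In Hcar2 replicate 3 was slightly above WT, in Pirb it was within the WT range, and in Hgf it was below WT. Among the 20 genes of the whole table with the largest such gap, 16 were on one of the lists and 10 were among the 34. The 34 and the lists were chosen with earlier results of these same libraries known. These 2 counts are therefore no independent support for the lists.

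The promoters of 4 of these genes are shown because Clec4d and Il1f9 were higher in all 3 WTATPgs libraries, whereas S100a8 and Ctsg were higher in replicates 1 and 2 alone. They are the 250 bases before the RefSeq start on GRCm38.p6, at chr6:123261857-123262106 (plus strand) for Clec4d, chr2:24186226-24186475 (plus strand) for Il1f9, chr3:90668821-90669070 (plus strand) for S100a8 and chr14:56102575-56102824 (minus strand) for Ctsg. Capitals mark GAGGAA or its reverse complement, a sequence bound by the ETS factor PU.1, which myeloid cells and B cells need.
Clec4d: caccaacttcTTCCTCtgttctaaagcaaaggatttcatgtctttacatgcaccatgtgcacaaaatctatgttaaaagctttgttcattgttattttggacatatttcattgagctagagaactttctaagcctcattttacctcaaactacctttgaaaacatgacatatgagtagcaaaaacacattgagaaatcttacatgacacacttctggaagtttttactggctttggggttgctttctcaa
Il1f9: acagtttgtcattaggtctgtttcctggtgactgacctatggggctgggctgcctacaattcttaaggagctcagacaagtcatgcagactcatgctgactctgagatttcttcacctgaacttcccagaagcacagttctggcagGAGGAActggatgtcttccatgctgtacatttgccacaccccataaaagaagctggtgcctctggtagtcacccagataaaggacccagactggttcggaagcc
S100a8: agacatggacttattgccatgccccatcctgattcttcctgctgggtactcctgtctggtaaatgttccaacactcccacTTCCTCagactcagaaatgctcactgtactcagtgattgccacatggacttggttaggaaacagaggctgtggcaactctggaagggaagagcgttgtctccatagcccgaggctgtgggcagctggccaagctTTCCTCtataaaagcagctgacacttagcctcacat
Ctsg: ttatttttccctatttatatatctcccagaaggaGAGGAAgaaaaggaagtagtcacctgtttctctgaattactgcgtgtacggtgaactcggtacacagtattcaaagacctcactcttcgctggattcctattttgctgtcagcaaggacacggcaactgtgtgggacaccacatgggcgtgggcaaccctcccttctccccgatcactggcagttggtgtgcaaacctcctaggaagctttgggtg

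RefSeq held 28 promoters for 26 of the 34 genes. GAGGAA was present on either strand in 14 of these 28 windows and in 23.3% of all 32851 promoter windows of the same length. TGACG, the core of the cyclic AMP response element, was present in 2 of 28 (7.14%) and in 17.8% of all windows. TGANTCA, the AP-1 element, was present in 1 of 28 (3.57%) and in 6.75% of all. Neither of these 2 motifs contains GAGGAA or is contained in it. A match describes the letters of the window only.

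With adenosine, where the granule genes were nearly absent, 10 of the 34 transcripts rose and 3 fell. Of the 34, 18 had enough counts to be tested in the adenosine set, and edgeR called 13 (72.2%), 10 of them higher and 3 lower in ADO than in DNT cells. Over all 14512 genes tested, 50.2% were called, 25.5% higher and 24.6% lower. The median log2 fold change of the 18 was 0.52, beside 0.0022 over all genes tested. Cd14 and Lyz2 passed the filter on low counts through ADO libraries, where they were higher, and Fcgr1 through DNT libraries. These counts and the median therefore describe the transcripts tested. The 2 granule genes tested, Mpo and Ctsg, did not pass, and S100a8 and S100a9 had at most 0.219 CPM in any library of the set. Elane and Il1f9 had 0 counts in all 6 libraries. All 13 transcripts called were in the macrophage and monocyte, secreted and MHC class II groups.

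Cd14 had the largest of these rises, with 2.83, 1.89 and 2.38 CPM in ADO libraries, against 0.298, 0.556 and 0.312 CPM in DNT libraries. No ADO value overlapped DNT (log2 fold change 2.6 ± 0.31 (SE), adjusted p = 5.1e-10, edgeR). Thbs1 had 4.38, 5.35 and 4.84 CPM in ADO libraries, against 1.66, 2.36 and 2.1 CPM in DNT libraries, again with separate groups (log2 fold change 1.25 ± 0.17 (SE), adjusted p = 2.2e-08, edgeR). Il1b had 1.46, 1.49 and 1.72 CPM in ADO libraries, against 0.554, 0.788 and 0.713 CPM in DNT libraries (log2 fold change 1.18 ± 0.29 (SE), adjusted p = 0.000584, edgeR). All 3 ADO libraries were above DNT for Il1b, which differs from the first set, where WTATPgs replicate 3 was below WT. Fcgr3 had 3.72, 3.51 and 3.79 CPM in ADO libraries, against 1.53, 2.41 and 1.83 CPM in DNT libraries. Cd68 had 11.2, 13.9 and 15.3 CPM in ADO libraries, against 7.71, 8.85 and 8.34 CPM in DNT libraries. Neither overlapped, with log2 fold changes of 0.94 ± 0.19 and 0.70 ± 0.10 (SE) and adjusted p-values of 4.2e-05 and 8.9e-08 by edgeR. Lyz2 had 0.930, 1.10 and 0.969 CPM in ADO libraries, against 0.511, 0.278 and 0.178 CPM in DNT libraries. Ctss had 29.9, 33.0 and 29.9 CPM in ADO libraries, against 22.3, 22.6 and 21.3 CPM in DNT libraries. Both rose, with log2 fold changes of 1.60 ± 0.40 and 0.49 ± 0.06 (SE) and adjusted p-values of 0.000649 and 3.5e-09 by edgeR.

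The MHC class II genes split. H2-Aa had 3.23, 4.82 and 3.26 CPM in ADO libraries, against 1.66, 1.67 and 1.11 CPM in DNT libraries. H2-Eb1 had 3.46, 3.46 and 3.43 CPM in ADO libraries, against 2.09, 1.76 and 1.69 CPM in DNT libraries. H2-Ab1 had 9.88, 9.99 and 8.94 CPM in ADO libraries, against 7.71, 6.39 and 6.64 CPM in DNT libraries. All 3 chains were higher in every ADO library, with log2 fold changes of 1.34 ± 0.21, 0.90 ± 0.19 and 0.47 ± 0.11 (SE) and adjusted p-values of 2.9e-07, 7.0e-05 and 0.000257 by edgeR. H2-Eb1 carries the strand limit given above. The invariant chain Cd74 was lower in every ADO library, with 13.8, 13.2 and 12.3 CPM in ADO libraries, against 19.8, 16.1 and 20.1 CPM in DNT libraries (log2 fold change -0.51 ± 0.08 (SE), adjusted p = 1.0e-06, edgeR). Fcgr1 and C5ar1 were also called lower at low levels. Fcgr1 had 0.177, 0.526 and 0.220 CPM in ADO libraries, against 0.639, 0.556 and 0.936 CPM in DNT libraries (log2 fold change -1.19 ± 0.44 (SE), adjusted p = 0.0221, edgeR), and its call was lost without ADO replicate 1 or 3 or DNT replicate 3. C5ar1 had 0.753, 0.570 and 0.660 CPM in ADO libraries, against 2.09, 0.695 and 1.11 CPM in DNT libraries, where ADO replicate 1 was above DNT replicate 2. The edgeR fit gave a log2 fold change -0.98 ± 0.34 (SE), adjusted p = 0.0130, and the call was lost without DNT replicate 1 (adjusted p = 0.355) or ADO replicate 2 (adjusted p = 0.0616). Mpeg1 had 4.34, 3.99 and 4.53 CPM in ADO libraries, against 3.79, 2.83 and 3.39 CPM in DNT libraries, with all ADO libraries above DNT and an adjusted p = 0.0532 by edgeR. Of the B cell genes, Cd79a and Cd79b were tested and not called, and Cd79b had 1.24, 0.833 and 0.969 CPM in ADO libraries, against 1.28, 1.16 and 0.669 CPM in DNT libraries. Groups that did not overlap were seen for 11 transcripts higher in ADO, an order that 28.2% of all genes had, and for 2 lower, against 27.5%.

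In the inhibitor set, 2 of the 34 transcripts fell with adenosine and none rose. Of 15 tested, edgeR called Fcgr3 and Ctsg lower in RA than in R cells (13.3%). Over all 12873 genes tested, 1.14% were called, 0.855% lower and 0.287% higher. The median log2 fold change of the 15 was -0.36, beside -0.04 over all genes tested. Some of the 15, Thbs1 and Mpeg1 among them, passed the filter on low counts through R libraries, where they were higher. Fcgr3 had 5.99, 5.24 and 6.19 CPM in RA libraries, against 17.8, 17.2 and 18.4 CPM in R libraries, a gap with no overlap (log2 fold change -1.61 ± 0.17 (SE), adjusted p = 0.00159, edgeR). Ctsg had 7.39, 7.77 and 6.84 CPM in RA libraries, against 27.7, 21.8 and 34.5 CPM in R libraries, and every RA library was below every R library (log2 fold change -1.93 ± 0.21 (SE), adjusted p = 0.00193, edgeR). Both stayed called in each of the 6 refits that left out 1 library, and with library size as the only scaling.

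Ctsg stood alone among the granule genes here. Elane had 0 counts in all 6 libraries, and Mpo, S100a8 and S100a9 had at most 0.175 CPM in any of them. Ctsg lies on chr14:56099881-56102574 (GRCm38, minus strand), between the mast cell and basophil protease Mcpt8, 14608 bp away, and the granzyme Gzme, 15052 bp away. Mcpt8 had 10.5, 12.1 and 12.9 CPM in RA libraries, against 18.4, 15.6 and 22.7 CPM in R libraries. It was lower in every RA library, as Ctsg was, with a log2 fold change of -0.67 ± 0.19 (SE) that did not pass the test (adjusted p = 0.155, edgeR). Gzme had 1078, 1065 and 994 CPM in RA libraries, against 1161, 892 and 1327 CPM in R libraries, with overlapping groups and an adjusted p of 0.906 by edgeR. The mast cell and basophil list summed to 25.4, 28.4 and 29.0 CPM in RA and 47.4, 41.3 and 65.8 CPM in R, with 8 tested, 0 called higher and 2 lower. Its part in the Ctsg result was not tested.

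Of the 10 transcripts that rose with adenosine alone, Il1b was not tested with the inhibitor and Fcgr3 was called lower, and the other 8 did not pass the test there. The common coefficient of variation between libraries in edgeR was 19.6% in the inhibitor set, against 2.74% in the adenosine set. A rise of the same size was therefore harder to call here, and a failed test does not show that it was absent. Cd14 had 2.25, 2.1 and 2.62 CPM in RA libraries, against 2.21, 1.99 and 2.18 CPM in R libraries, which overlapped (log2 fold change 0.13 ± 0.23 (SE), adjusted p = 0.898, edgeR). H2-Aa had 1.22, 1.97 and 1.94 CPM in RA libraries, against 1.96, 1.46 and 1.24 CPM in R libraries. H2-Eb1 had 1.73, 2.49 and 1.81 CPM in RA libraries, against 3.86, 2.35 and 2.77 CPM in R libraries. H2-Ab1, the most abundant class II chain of this set per kilobase, had 41.2, 37.6 and 36.6 CPM in RA libraries, against 45.5, 45.6 and 29.3 CPM in R libraries, with R replicate 3 apart from the other R libraries. These 3 chains overlapped between the groups. Thbs1 had 0.187, 0.349 and 0.559 CPM in RA libraries, against 0.602, 1.70 and 1.24 CPM in R libraries, below R in every RA library but not past the threshold (log2 fold change -1.68 ± 0.50 (SE), adjusted p = 0.172, edgeR). Cd74 had 3.37, 3.58 and 2.88 CPM in RA libraries, against 6.72, 8.19 and 5.43 CPM in R libraries, also lower in every RA library (log2 fold change -1.05 ± 0.22 (SE), adjusted p = 0.0570, edgeR), and was called when R replicate 3 was left out (adjusted p = 0.00155). Cd68 had 12.8, 13.4 and 11.5 CPM in RA libraries, against 10.5, 11.3 and 7.44 CPM in R libraries, higher in every RA library. Ctss had 16.9, 17.1 and 16.0 CPM in RA libraries, against 18, 11.9 and 21.1 CPM in R libraries. Mpeg1 had 0.374, 0.655 and 0.215 CPM in RA libraries, against 0.852, 0.689 and 0.886 CPM in R libraries. The Ctss groups overlapped and Mpeg1 was lower in every RA library, and neither passed the test. Clec4d had 2.39, 1.57 and 2.15 CPM in RA libraries, against 1.65, 1.18 and 3.25 CPM in R libraries. C5ar1 had 1.03, 0.655 and 0.946 CPM in RA libraries, against 1.10, 1.66 and 0.531 CPM in R libraries. Cd79b had 0.421, 1.004 and 0.602 CPM in RA libraries, against 0.953, 0.405 and 1.77 CPM in R libraries. These 3 overlapped between the groups. In all, RA was below R without overlap for 5 transcripts, an order that 10.7% of all genes had, and above it for 1, against 10.1%.

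**Figure D5:**
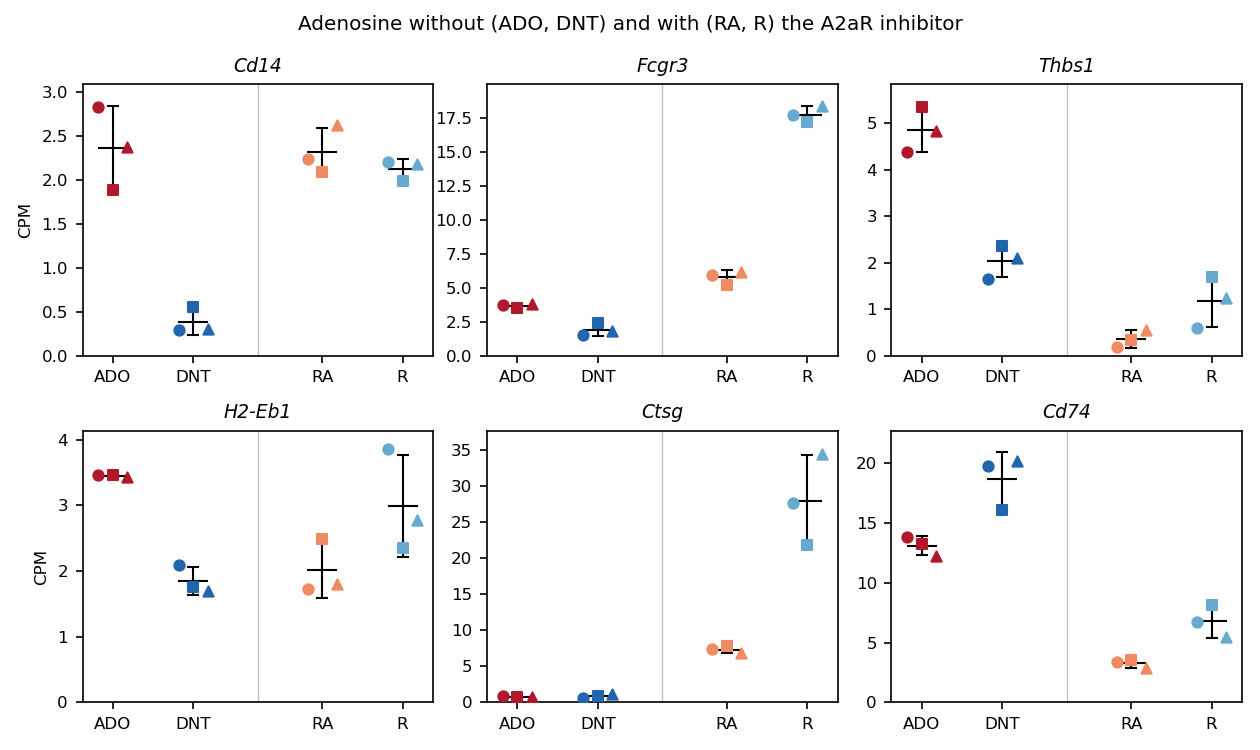
Points give CPM in each library of ADO and DNT (left of each panel) and of RA and R (right), with a line at the mean and bars of 1 SD, and a circle, square and triangle for replicates 1, 2 and 3. Cd14, Thbs1 and H2-Eb1 are higher in every ADO than in every DNT library, without such a gap of RA over R. Fcgr3 is higher in ADO than in DNT and lower in RA than in R.

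The effect of adenosine with the inhibitor was then compared with its effect without it, as a difference of log2 fold changes in a fit of 12 libraries, a test added after the data were seen. Of 20 transcripts tested, 5 had a lower effect with the inhibitor and none a higher one, where 4.05% of all 14965 genes were called, 3.14% lower and 0.909% higher. The difference was -2.48 ± 0.35 for Cd14 (adjusted p = 0.00179), -2.56 ± 0.22 for Fcgr3 (adjusted p = 3.7e-05) and -2.96 ± 0.51 for Thbs1 (adjusted p = 0.00638), each with its SE and by edgeR. For H2-Eb1 it was -1.48 ± 0.29 (adjusted p = 0.0144, edgeR) and for Ctsg -1.75 ± 0.37 (adjusted p = 0.0192, edgeR). The inhibitor was present in all libraries of one set and in none of the other, so the set and the inhibitor cannot be told apart. A lower effect was not always a lower level with adenosine, across sets normalized separately. Cd14 averaged 2.32 CPM in RA and 2.37 in ADO, but 2.125 in R and 0.389 in DNT. Fcgr3 averaged 5.81 in RA and 3.67 in ADO, and 17.8 in R and 1.92 in DNT. Ctsg was also higher in RA than in ADO (7.33 and 0.808), whereas Thbs1 (0.365 and 4.86) and H2-Eb1 (2.01 and 3.45) were lower. H2-Eb1 was not called without DNT replicate 3 (adjusted p = 0.0501). Ctsg was not called without DNT replicate 1 or 2 or without ADO replicate 1, 2 or 3, with adjusted p-values between 0.0520 and 0.0625 by edgeR. The count called was 8 without R replicate 3.

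The effect of ATPgs was compared with that of adenosine in the same way. Of 32 transcripts tested, 3 had a higher effect with ATPgs and none a lower one, where 17.3% of all 15788 genes were called, 8.13% higher and 9.12% lower. Some of the 32 passed the filter on low counts through WTATPgs libraries, where they were higher, so these counts describe the transcripts tested. The difference was 2.28 ± 0.58 for Fcgr1 (adjusted p = 0.0118), 2.14 ± 0.47 for C5ar1 (adjusted p = 0.00670) and 1.56 ± 0.47 for Mpo (adjusted p = 0.0357), each with its SE and by edgeR. The share called higher was near the 8.13% over all genes. Each ligand had its own set, so set and ligand cannot be told apart. Fcgr1 and C5ar1 were called higher with ATPgs and lower with adenosine, where both calls depended on single libraries. The Fcgr1 call with ATPgs was lost with DESeq2 (adjusted p = 0.129) and without WT replicate 1, 2 or 3. Mpo rose with ATPgs and was not called with adenosine, at 0.797, 1.27 and 1.06 CPM in ADO libraries and 0.937, 1.25 and 1.43 CPM in DNT libraries. Mpo kept its call without DNT replicate 1 or WTATPgs replicate 3 and lost it without any other single library, with adjusted p-values between 0.0516 and 0.108. For Cd14 and Thbs1 the differences were 1.65 ± 1.27 and 2.83 ± 1.09 (SE) and were not called (adjusted p = 0.442 and 0.121, edgeR), but both were called without WTATPgs replicate 3, with 18 transcripts called in all.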

How the data were processed

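RNA was measured by sequencing in 18 libraries of mouse DNT cells. The deposited values are raw counts of reads per gene and library, made by the authors from reads aligned with HISAT2 2.1.0 to GRCm38, per the submitters' processing notes. Neither the counting tool nor its annotation or strand setting is named by the sources used here. Ensembl IDs were matched to GENCODE vM21 symbols, found for 99.64 to 99.72% of IDs. The members and lists were chosen with earlier results of these data known.

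From the counts, each set of 6 libraries was fitted separately with edgeR 4.0.16 in R 4.3.3 (quasi-likelihood F test, TMM factors, filterByExpr, robust dispersion), and the 2 differences between effects were fitted on 12 libraries. P-values are two-sided, adjusted over all genes tested by Benjamini-Hochberg, and called under 0.05. Replicate numbers were not used as pairs. A count of 0 allows up to 3 counts; intervals and floors cover counting error only. Total counts were 20156082 to 24331577 per library.

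Values are given for genes reaching 1 CPM in a group. From other lists, genes were named from the 3 most abundant and those with the smallest p, and values are given for only some of them. Genes outside the lists were named by the gap described, with values for some. Alternatives were DESeq2 1.42.0, limma-voom (limma 3.58.1), RLE or library size scaling, no filter, at least 1 CPM in 3 libraries, all 18 libraries in one fit, a replicate block, and leaving out each library. The scripts were tested on simulated data.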

Additional observations from a re-analysis of the deposited data

Results flagged for a closer look

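A test of the difference between 2 effects was passed by 8 values. The effect of ATPgs exceeded that of adenosine for Fcgr1, by 2.28 on the log2 scale, for C5ar1, by 2.14, and for Mpo, by 1.56. These were 3 of 32 transcripts tested, a share near the 8.13% of all genes called higher, and 9.12% were called lower. Mpo kept its call without DNT replicate 1 or WTATPgs replicate 3 and lost it without any other single library. The adenosine effect with the A2aR inhibitor minus that without it was -2.48 for Cd14, -2.56 for Fcgr3, -1.75 for Ctsg, -2.96 for Thbs1 and -1.48 for H2-Eb1 on the log2 scale. These were 5 of 20 transcripts tested, all lower, where 3.14% of all genes were called lower and 0.909% higher. Ctsg lost its call without DNT replicate 1 or 2, or without ADO replicate 1, 2 or 3. H2-Eb1 lost its call without DNT replicate 3. Fcgr3 rose with adenosine alone and was lower in all 3 RA libraries than in all 3 R libraries. Set and inhibitor cannot be told apart in the second of these differences, nor set and ligand in the first.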

How the results depend on the processing

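With ATPgs, 10 transcripts and 5612 genes were called. The transcripts numbered 16 with DESeq2, 4 with limma-voom, 19 with all 18 libraries in one fit (3299 genes), and 2 to 31 when single libraries were left out (3885 to 8381 genes). Those above every WT library were 10, and 31 without WTATPgs replicate 3. With adenosine, 13 transcripts and 7281 genes were called, 4 and 2309 with all 18 libraries, and 12 to 13 and 6687 to 6905 when single libraries were left out. With the inhibitor, 2 transcripts and 147 genes were called. The genes numbered 533 with DESeq2, 73 with library size only, 485 with no filter (4 transcripts), 1778 with all 18 libraries, and 36 to 1719 (2 to 3 transcripts) when single libraries were left out. Library size scaling moved the median of all genes by 0.128 on the log2 scale there. The ATPgs and adenosine effects differed for 3 transcripts and 2724 genes, 302 genes with all 18 libraries, and 2 to 18 transcripts and 1943 to 5367 genes when single libraries were left out. The adenosine effects with and without inhibitor differed for 5 transcripts and 606 genes. These numbered 1387 genes with DESeq2, 240 with library size only, 1 transcript and 1009 genes with all 18 libraries, and 4 to 8 transcripts and 280 to 3051 genes when single libraries were left out. No pairing of libraries by equal replicate number was detected. The correlations of their deviations were at most 0.0745, and R and RA replicates 2 and 3 gave -0.256 and -0.149. With 3 libraries per group, these values cannot show that no pairing existed. With the replicate block, 9 transcripts were called with ATPgs (8 of them among the 10), 14 with adenosine, 2 with the inhibitor, 3 for the first difference, and 3 (160 genes) for the second. Of 1917 fold changes compared with their alternatives, 72 changed sign, and none of these was called in either fit. The cause of these changes was not tested. Transcripts near 1 CPM rest on few counts, so their differences were least well measured.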
